A study of Mus musculus with 27 samples.

Results

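The transcripts of 9 genes were followed: Lypd6b, Igfbp4, Pxylp1, Pdlim4, Chl1, Chdh, Adgrg3, Tdrp and Actn1. They had been selected on their log2 levels on these same arrays, seen in earlier results to be far lower in Foxp3+ than in Foxp3- or naive T cells. For Actn1, Chdh and Tdrp this did not hold in every comparison, as the values below show. The members are 9 of the 18194 genes measured, and all 9 were found, with 21 probe sets that carry their symbols alone. The precursor arrays were left unused by that choice. The question was whether each transcript was already low in Treg precursors, before Foxp3, or fell in Foxp3+ cells. RNA came from T lymphocytes of Balb/c mice and was hybridised to 27 Affymetrix 3' arrays, 3 in each of 9 sorted groups. Thymic groups were Treg precursor cells, which the series title gives as CD4 single-positive, Foxp3GFP- and CD25+, and cells labelled Foxp3+GFP+ or Foxp3-GFP- at CD24hi, CD24int (intermediate) and CD24low, the last called CD24lo here. Lymph node groups were peripheral Tregs and peripheral naive T cells, called LN Treg and LN naive. The labels give the Foxp3- cells the word Treg, while the series design names them conventional T cells. They give no age or agent for any group, no CD24 level for the precursors and no note on whether animals were pooled, and the GFP reporter's construction is not described in them.

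Regulatory T cells (Tregs) restrain immune responses, and Foxp3 is the transcription factor that defines them. In the thymus many arise from CD4 single-positive cells that first gain CD25, the alpha chain of the interleukin-2 receptor, and then Foxp3. CD24, a protein on the cell surface, is gradually lost by maturing thymocytes, so the gates order cells from newly selected to ready to leave. The 9 genes belong to no single pathway. Igfbp4 encodes a secreted protein that binds insulin-like growth factors, Lypd6b a membrane-anchored protein of the Ly6/uPAR family, Chl1 an adhesion molecule related to L1, and Adgrg3 an adhesion G protein-coupled receptor. Pxylp1 encodes a phosphatase that acts on the xylose linking glycosaminoglycans to proteoglycans, and Chdh the mitochondrial choline dehydrogenase. Pdlim4 and Actn1, which encodes an alpha-actinin, make proteins of the actin cytoskeleton. Tdrp encodes a protein named for testis development.

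Upstream sequence is shown for 3 genes. Igfbp4 was highest in intermediate conventional and naive cells, and Chl1 in the least mature conventional cells. Actn1, also highest in naive cells, was the member whose level in Foxp3+ CD24hi cells overlapped that in Foxp3- CD24hi cells. Each line gives the 250 bases before the gene start in RefSeq's GRCm38.p6 annotation, 5' to 3' on the gene's strand. Capitals mark the 1 match found.
Igfbp4, chr11:99040994-99041243, plus strand: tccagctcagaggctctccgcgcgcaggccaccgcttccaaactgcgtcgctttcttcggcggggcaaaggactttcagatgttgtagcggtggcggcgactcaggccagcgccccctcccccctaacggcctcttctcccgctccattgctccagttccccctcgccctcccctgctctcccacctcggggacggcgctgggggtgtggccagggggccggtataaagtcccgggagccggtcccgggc
Chl1, chr6:103510626-103510875, plus strand: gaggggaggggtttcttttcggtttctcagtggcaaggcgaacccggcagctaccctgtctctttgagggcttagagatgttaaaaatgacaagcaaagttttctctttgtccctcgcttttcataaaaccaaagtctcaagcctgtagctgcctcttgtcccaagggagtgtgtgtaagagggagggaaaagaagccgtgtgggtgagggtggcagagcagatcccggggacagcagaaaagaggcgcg
Actn1, chr12:80260364-80260613, minus strand: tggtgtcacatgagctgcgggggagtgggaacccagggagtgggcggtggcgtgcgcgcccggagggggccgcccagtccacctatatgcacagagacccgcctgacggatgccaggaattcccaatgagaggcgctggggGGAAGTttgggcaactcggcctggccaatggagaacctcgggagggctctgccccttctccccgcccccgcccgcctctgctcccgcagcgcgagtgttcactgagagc
RefSeq held 9 such windows for 7 of the genes, 3 of them for Chdh, and Lypd6b and Tdrp were unmatched. Both strands were searched for CTTTGAT (TCF/LEF), TGTTTAC (forkhead), TGTGGT (RUNX) and GGAAGT (ETS). The first 3 motifs were in 0 of the 9 windows, against 3.21%, 3.17% and 14.0% of all 32851 windows, and GGAAGT was in 1 of 9, that of Actn1, against 19.7%. These letters were searched as a description. The Chl1 and Adgrg3 windows were 52.4% and 55.2% G and C, close to the median of 52.4% over all windows. Those of Pxylp1 (73.6%), Pdlim4 (69.2%), Igfbp4 (69.2%) and Actn1 (68.4%) were richer, and the 3 of Chdh ran from 51.6% to 69.2%.

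Levels are given in log2 units of the deposited intensity, and so are differences, always taken as first group less second group, with ± giving limma's standard error over groups of 3 arrays. A gene was called higher or lower at an adjusted p under 0.05 over the 18194 genes. Array medians lay between 4.92 and 5.00 log2 units, so levels below these are dim, and differences there are compressed. Nothing in the labels ties replicates to different animals. The p-values therefore cover only the spread among these samples, which may be technical. In bulk RNA fewer expressing cells cannot be told apart from less RNA per cell. Of 7 listed T cell markers, 5 were measured, with mean levels of 11.04 to 11.52 over the groups. At the step from Foxp3- CD24hi cells to precursors 2 of the 5 were called lower and 0 higher, Cd3e (-0.33, adjusted p = 0.0424) and Cd3g (-0.40, adjusted p = 0.0186). Foxp3 averaged 3.97 ± 0.17 (SD, n = 3) in precursors, within the 3.80 to 4.17 of the conventional groups, and 9.90 to 10.07 in the 4 Foxp3+ groups, while Il2ra, the CD25 gene, stood at 8.16 ± 0.29 in precursors. Cd24a averaged 11.74 ± 0.43 in precursors, nearest to the 10.93 ± 0.24 of Foxp3- CD24hi cells, which therefore served as their main reference. The match was not close: all precursor arrays (11.485 to 12.234) lay above all Foxp3- CD24hi arrays (10.752 to 11.205). Replicate 3 of Foxp3- CD24hi held liver transcripts, with Alb at 11.65 against 3.49 to 4.23 on the other 26 arrays.

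**Figure D1:**
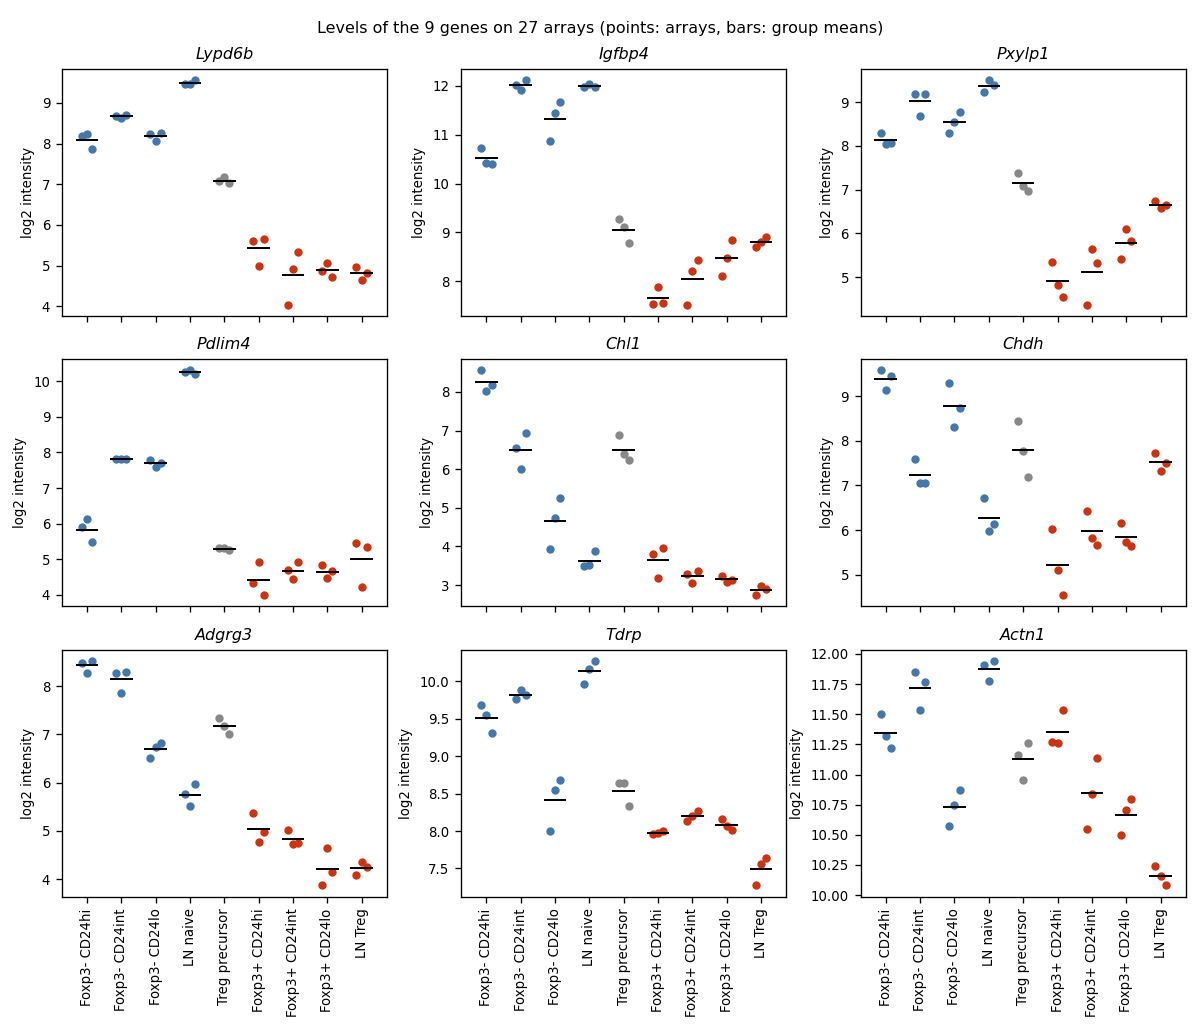
Levels of the 9 genes (log2 intensity, vertical axis) in the 9 sorted groups (horizontal axis). Points are single arrays, 3 per group, bars are group means, blue marks conventional cells, grey precursors and red Foxp3+ cells; for 8 genes the grey points lie below all Foxp3- CD24hi points, and for 8 above all Foxp3+ CD24hi points.

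Most of the 9 transcripts were partly reduced in precursors and reduced again in Foxp3+ CD24hi cells. From Foxp3- CD24hi cells to precursors, 7 of 9 were called lower and 0 higher, against 4.03% of all genes called lower and 5.08% higher. From precursors to Foxp3+ CD24hi cells, 8 of 9 were called lower and 0 higher, against 9.27% and 6.77% of all genes. The median difference was -1.005 over the members at the first step, where the median over all genes was -0.01, and -1.67 at the second, where it was 0.02. All precursor arrays lay below all Foxp3- CD24hi arrays for 8 members, against 11.2% of all genes, and all Foxp3+ CD24hi arrays below all precursor arrays for 8, against 13.3%. The 7 called at both steps were Lypd6b, Igfbp4, Pxylp1, Chl1, Chdh, Adgrg3 and Tdrp. Pdlim4 was called at the second step alone and Actn1 at neither. Neither step is the contrast that chose the members. The first shares its Foxp3- CD24hi arrays with that choice, the second its Foxp3+ CD24hi arrays, and both share the 3 precursor arrays. For each gene the first and second differences add up to the Foxp3+ minus Foxp3- CD24hi gap, which was part of the choice. Falls were thus favoured in advance, and the shares of all genes, not so chosen, do not test the members' counts. What the steps show is how each gap was divided. With the replicate number as a block, 2671 genes were called in all at the first step and 4443 at the second, against 1658 and 2917 without, and the members' counts stayed at 7 and 8. Without the array holding liver transcripts the first count was again 7.

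**Figure D2:**
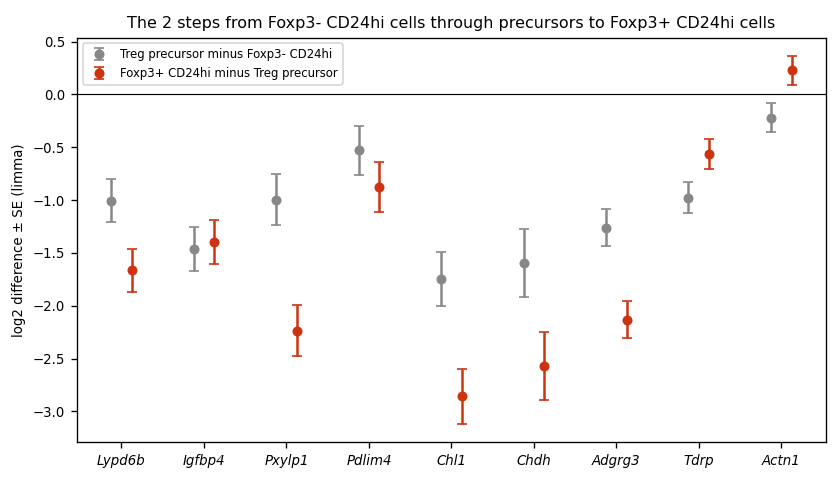
Log2 differences of the 9 genes (vertical axis, ± SE from limma, 3 arrays per group) at the step from Foxp3- CD24hi cells to precursors (grey) and from precursors to Foxp3+ CD24hi cells (red). Grey points run from -1.75 for Chl1 to -0.22 for Actn1 and red points from -2.86 for Chl1 to 0.23 for Actn1.

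How much of each drop was present in precursors can be described by placing them on the way from the Foxp3- to the Foxp3+ CD24hi mean, whose distance was part of the choice of members and carries no test. For the 8 genes with a distance of at least 1 log2 unit, precursors lay at 30.8% to 63.4%, with a median of 37.8%. Pxylp1 was at 30.8 ± 6.83% (SD, n = 3 precursor arrays), Adgrg3 at 37.1 ± 4.76%, Lypd6b at 37.6 ± 2.88%, Pdlim4 at 37.7 ± 2.65%, Chl1 at 37.9 ± 7.16% and Chdh at 38.2 ± 15.1%. Igfbp4, at 51.2 ± 8.65%, and Tdrp, at 63.4 ± 11.3%, were the furthest along. The SD covers the precursor arrays alone, with both end points held fixed. Without Foxp3- CD24hi replicate 3, Pdlim4 was at 44.5%. The Foxp3+ CD24hi means of Chl1 (3.65), Pdlim4 (4.43), Pxylp1 (4.90) and Adgrg3 (5.04) lay near or below the array medians, so their distances may be compressed. The shares also differed with the conventional gate used as the reference. Against the CD24int pair of groups Igfbp4 was at 74.8% and Pdlim4 at 80.3%, while Chl1 was at -0.64%.

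Among the secreted and surface proteins, Igfbp4 read 10.73, 10.42 and 10.39 in Foxp3- CD24hi cells, 9.27, 9.11 and 8.78 in precursors and 7.54, 7.88 and 7.56 in Foxp3+ CD24hi cells. The 3 groups did not overlap. Igfbp4 fell by 1.46 ± 0.21 from Foxp3- CD24hi cells to precursors (2.76-fold, adjusted p = 1.93e-05) and by 1.39 ± 0.21 from there to Foxp3+ CD24hi cells (2.63-fold, adjusted p = 2.79e-05).

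Lypd6b read 8.17, 8.23 and 7.88 in Foxp3- CD24hi cells, 7.08, 7.17 and 7.02 in precursors and 5.61, 5.00 and 5.66 in Foxp3+ CD24hi cells, again with no overlap. It fell 2.01-fold in precursors (-1.005 ± 0.21, adjusted p = 0.00161) and 3.17-fold at the second step (-1.67 ± 0.21, adjusted p = 2.47e-06).

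Chl1 had the largest fall of the members at each step. Its arrays read 8.56, 8.03 and 8.18 in Foxp3- CD24hi cells, 6.88, 6.40 and 6.25 in precursors and 3.80, 3.18 and 3.97 in Foxp3+ CD24hi cells, where all were below the array medians. The differences were -1.75 ± 0.26 (3.35-fold, adjusted p = 3.31e-05) and -2.86 ± 0.26 (7.25-fold, adjusted p = 2.22e-08). Adgrg3 followed the same order, at 8.49, 8.28 and 8.53, then 7.33, 7.17 and 7.01, then 5.36, 4.78 and 4.97. It was lower by -1.26 ± 0.17 at the first step (adjusted p = 1.48e-05) and by -2.13 ± 0.17 at the second (adjusted p = 5.32e-09).

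Of the enzymes, Pxylp1 read 8.30, 8.03 and 8.08 in Foxp3- CD24hi cells, 7.39, 7.08 and 6.96 in precursors and 5.35, 4.81 and 4.55 in Foxp3+ CD24hi cells. Its first fall was 1.99-fold (-0.995 ± 0.24, adjusted p = 0.00707) and its second 4.72-fold (-2.24 ± 0.24, adjusted p = 2.97e-07). Chdh read 9.58, 9.14 and 9.45, then 8.44, 7.77 and 7.19 and then 6.03, 5.10 and 4.55. It was lower by -1.59 ± 0.32 (adjusted p = 0.00129) and by -2.57 ± 0.32 (adjusted p = 2.66e-06). Chdh is abundant in liver. Its value on the Foxp3- CD24hi array that held liver transcripts, 9.45, lay between those of the other 2 arrays, and without that array precursors stood at 37.8% of its drop against 38.2% with it.

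Of the cytoskeletal pair, Pdlim4 read 5.89, 6.12 and 5.49 in Foxp3- CD24hi cells and 5.33, 5.32 and 5.26 in precursors, close to the array medians in both, and the first difference was not called (-0.53 ± 0.23, adjusted p = 0.198). In Foxp3+ CD24hi cells it read 4.35, 4.93 and 4.00 all below the precursors' arrays, and was lower than in them (-0.88 ± 0.23, adjusted p = 0.00982), a call that was lost without Foxp3+ CD24hi replicate 3 (-0.66, adjusted p = 0.0717). Actn1 was bright, at 11.51, 11.32 and 11.22 in Foxp3- cells, 11.16, 10.95 and 11.26 in precursors and 11.27, 11.26 and 11.54 in Foxp3+ cells. These groups overlapped, with differences of -0.22 ± 0.14 (adjusted p = 0.436) and 0.23 ± 0.14 (adjusted p = 0.312), and no loss of Actn1 was called at CD24hi.

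Tdrp read 9.69, 9.55 and 9.31 in Foxp3- CD24hi cells, 8.64, 8.64 and 8.34 in precursors and 7.96, 7.97 and 8.00 in Foxp3+ CD24hi cells. Its first difference was -0.98 ± 0.14 (adjusted p = 2.93e-05) and its second -0.56 ± 0.14 (adjusted p = 0.00672). Tdrp and Igfbp4 were thus the members whose first difference was the larger in size, a comparison of the 2 steps that was not tested.

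Markers of T cells and of other cell types also moved at these steps. At the first, 2 of 5 T cell markers were called lower, as given above. Of 7 measured NK and NKT markers, 5 were called higher in precursors and 0 lower. The summed level of the 7 ran from 9.62 to 10.56 log2 units in precursors against 7.07 to 7.52 in Foxp3- CD24hi cells. The 5 were Cxcr6 (3.99), Il2rb (3.22), Klrd1 (2.20), Tbx21 (2.12) and Zbtb16 (1.79). Il2rb encodes another chain of the interleukin-2 receptor, so its RNA need not come from NK or NKT cells. Of 7 measured double-positive thymocyte markers, 5 were called higher and 0 lower, with summed levels of 10.17 to 11.49 against 9.74 to 9.91. Of 2 measured gamma delta T cell markers 1 was called higher, with sums of 7.88 to 9.84 against 7.17 to 7.43. No listed marker was at 0 on any array, but no value in the deposited data was, the lowest intensity being 3.55. At the second step 6 of 7 double-positive markers were called lower and 0 higher, with sums falling to 8.79 to 8.84 in Foxp3+ CD24hi cells, and both gamma delta markers were lower, with sums of 6.66 to 6.99. Of the NK and NKT markers 4 were then lower and 1 higher, and their sums, 10.30 to 10.70, overlapped those of precursors. A sum follows its brightest genes. The mean log2 level of the 7 markers did not overlap, at 4.84 to 5.28 against 5.69 to 6.76 in precursors. Of 8 antigen-presenting cell markers 2 were lower and of 9 cell cycle genes 3, with 0 higher. Whether such cells were present, and their part in the members' first and second falls, was not tested.

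Against Foxp3- CD24lo cells, a reference with little CD24, precursors gave a mixed result: 5 of 9 members were called lower, against 9.02% of all genes, and 2 higher, against 7.94%. Pdlim4 (-2.39 ± 0.23, adjusted p = 2.41e-08) and Igfbp4 (-2.28 ± 0.21, adjusted p = 7.65e-09) were the lowest relative to CD24lo cells, followed by Pxylp1 (-1.40 ± 0.24), Lypd6b (-1.09 ± 0.21) and Chdh (-0.98 ± 0.32), with adjusted p of at most 0.0355. Chl1 was higher in precursors (1.86 ± 0.26, adjusted p = 4.99e-06), as was Actn1 (0.40 ± 0.14, adjusted p = 0.0456). Tdrp (0.13 ± 0.14) and Adgrg3 (0.48 ± 0.17, adjusted p = 0.0638) were not called. The Chdh call was lost without precursor replicate 2 or 3 or CD24lo replicate 1 or 3 (-1.004 to -0.67), and that of Actn1 without precursor replicate 1 or 3 or CD24lo replicate 1 or 2 (0.32 to 0.40). The CD24lo arrays also took part in the choice of members. Of the NK and NKT markers 6 of 7 were lower in precursors and 0 higher, with sums of 9.62 to 10.56 against 12.13 to 12.34. Both gamma delta markers were lower too, while 7 of 7 double-positive markers were higher. Their part was not tested.

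The order of the 9 groups separated the members into those highest in naive or CD24int conventional cells and those highest in Foxp3- CD24hi cells. Lypd6b, Pxylp1, Pdlim4, Tdrp and Actn1 were highest in LN naive cells, and Igfbp4 in Foxp3- CD24int cells (12.01 ± 0.11, SD, n = 3), whose arrays overlapped those of LN naive cells (12.01 ± 0.04). Chl1 (8.25 ± 0.27), Chdh (9.39 ± 0.23) and Adgrg3 (8.43 ± 0.13) were highest in Foxp3- CD24hi cells. Across the 9 group means, which share arrays between genes, Igfbp4 correlated with Pxylp1 at r = 0.977, with Lypd6b at 0.93 and with Pdlim4 at 0.914. Chl1 correlated with Adgrg3 at 0.95, but with Pdlim4 at 0.137. Chdh and Actn1 were the least alike, at -0.103. In the order of levels, the precursors' arrays overlapped neither neighbour for Lypd6b, Pxylp1 and Adgrg3. They overlapped LN Treg for Igfbp4 and Pdlim4, Foxp3- CD24int for Chl1, Foxp3- CD24lo for Tdrp, Foxp3- CD24lo and LN Treg for Chdh, and both neighbours, Foxp3- CD24hi and Foxp3+ CD24int, for Actn1.

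**Figure D3:**
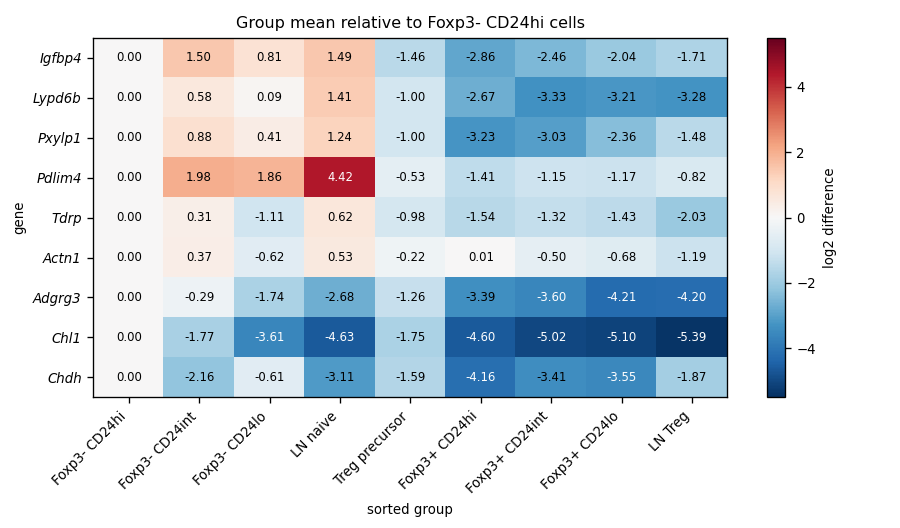
Group means of the 9 genes (rows) in the 9 groups (columns), each as a log2 difference from the gene's mean in Foxp3- CD24hi cells. Pdlim4 reaches 4.42 in LN naive cells while Chl1 falls to -4.63 there. Every gene is below 0 in precursors and in all 4 Foxp3+ groups, except Actn1 at 0.01 in Foxp3+ CD24hi cells.

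In conventional cells the first maturation step, CD24hi to CD24int, raised 3 of the 9 and lowered 2, against 2.26% and 2.75% of all genes. Pdlim4 rose 3.94-fold to 7.80, 7.81 and 7.83 (1.98 ± 0.23, adjusted p = 4.41e-06), and its 3 arrays barely differed. Igfbp4 rose to 12.01, 11.91 and 12.12 (1.499 ± 0.21, adjusted p = 3.34e-05) and Pxylp1 to 9.18, 8.68 and 9.19 (0.88 ± 0.24, adjusted p = 0.0296). Chl1 fell to 6.55, 6.00 and 6.92 (-1.77 ± 0.26, adjusted p = 6.34e-05) and Chdh to 7.59, 7.06 and 7.06 (-2.16 ± 0.32, adjusted p = 8.2e-05). The Pxylp1 call was lost without CD24hi replicate 2 or 3 or CD24int replicate 1 or 3 (0.79 to 0.85). Lypd6b, Adgrg3, Tdrp and Actn1 were not called, at 0.58, -0.29, 0.31 and 0.37. These steps share arrays with the comparisons that chose the members. Of the NK and NKT markers 5 of 7 were higher at CD24int and 0 lower, with sums of 8.14 to 9.38 against 7.07 to 7.52 at CD24hi, and of the double-positive markers 3 of 7 were lower and 0 higher, with sums of 8.70 to 9.16 against 9.74 to 9.91. Their part in the members' changes was not tested. With the replicate number as a block, 1822 genes were called at this step in all, against 911 without.

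At the second conventional step, CD24int to CD24lo, 5 members fell and 1 rose, against 4.13% and 7.86% of all genes. Chl1 (-1.84 ± 0.26), Adgrg3 (-1.45 ± 0.17), Tdrp (-1.41 ± 0.14) and Actn1 (-0.98 ± 0.14) fell with adjusted p of at most 9.16e-06. Igfbp4 fell less (-0.68 ± 0.21, adjusted p = 0.0292), and without CD24int replicate 1 or 3 or CD24lo replicate 1 it was not called (-0.68, -0.63 and -0.45). Chdh rose again, to 9.29, 8.32 and 8.73 (1.55 ± 0.32, adjusted p = 0.00129). Lypd6b, Pxylp1 and Pdlim4 were not called (-0.49, -0.47 and -0.12). With the block, 3407 genes were called in all, against 2182. The CD24lo gate differed in its cells too: the summed NK and NKT markers ran from 12.13 to 12.34 there, against 8.14 to 9.38 at CD24int, and the summed gamma delta T cell markers from 12.41 to 12.54 against 7.33 to 8.74. Their part in these changes was not tested.

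Between the Foxp3+ thymocyte gates 0 of 9 members were called, whether from CD24hi to CD24int or from CD24int to CD24lo, in limma, where 52 and 3 of all 18194 genes were called (0.286% and 0.0165%), and 1396 and 819 had an unadjusted p under 0.05. With the replicate number as a block, 210 and 23 genes were called, and the first step then lowered Actn1 (-0.51, adjusted p = 0.0442) and raised Chdh (0.75, adjusted p = 0.0466). Without Foxp3+ CD24int replicate 3, Lypd6b (-0.95, adjusted p = 0.0288) and Actn1 (-0.66, adjusted p = 0.0338) were also called at that step. Lypd6b in Foxp3+ cells averaged 5.42 ± 0.37, 4.76 ± 0.66 and 4.88 ± 0.18 from CD24hi to CD24lo, and Chl1 3.65 ± 0.42, 3.24 ± 0.17 and 3.15 ± 0.08. Igfbp4 averaged 7.66 ± 0.19, 8.06 ± 0.47 and 8.47 ± 0.36, and Pxylp1 4.90 ± 0.41, 5.11 ± 0.66 and 5.78 ± 0.34, differences that were not called. Pdlim4 averaged 4.43, 4.69 and 4.66 and Adgrg3 5.04, 4.83 and 4.22. Levels such as these and those of Chl1 lie near or below the array medians, where differences are compressed. These arrays also took part in the choice of members, so the absence of calls does not show that levels stayed the same.

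The gap between Foxp3+ and Foxp3- cells chose the members and is given as a description only. All arrays of Foxp3+ cells were below all arrays of the Foxp3- group at the same gate for 8 members at CD24hi, for 9 at CD24int and for 7 at CD24lo, against 15.5%, 12.5% and 18.3% of all genes. The gaps differed between gates. That of Pdlim4 was -1.41 at CD24hi, -3.13 at CD24int and -3.03 at CD24lo, and that of Chl1 was -4.60, -3.25 and -1.50. Averaged over its 4 probe sets, the gap of Chl1 was -2.24, -1.39 and -0.55, and so averaged the CD24hi gaps of Pxylp1 and Igfbp4 were -1.93 and -2.01 in place of -3.23 and -2.86. The gap of Actn1 was 0.01, -0.87 and -0.06 and that of Tdrp -1.54, -1.62 and -0.33. In lymph node 8 members were lower in Tregs on all arrays, against 14.6% of all genes, and Chdh was higher (1.24), against 14.1%. Lymph node gaps ran from -5.24 for Pdlim4 to -0.76 for Chl1 among the 8.

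Entry into the lymph node pool was set against the CD24lo thymocytes of each class. The groups compared were all part of the comparisons that chose the members, so calls between them are not independent of that choice. In conventional cells 6 members were higher and 3 lower in LN naive than in CD24lo cells, against 6.03% and 8.58% of all genes. Pdlim4 rose most, to 10.26, 10.30 and 10.21 from 7.77, 7.60 and 7.70 (2.56 ± 0.23, 5.92-fold, adjusted p = 1.13e-08). Tdrp (1.73 ± 0.14), Lypd6b (1.32 ± 0.21) and Actn1 (1.15 ± 0.14) rose with adjusted p of at most 4.22e-05. Pxylp1 (0.83 ± 0.24, adjusted p = 0.0187) and Igfbp4 (0.68 ± 0.21, adjusted p = 0.0267) rose too. Both calls depended on single arrays: Pxylp1 was not called without CD24lo replicate 1 or LN naive replicate 2 or 3 (0.71 to 0.82), nor Igfbp4 without CD24lo replicate 1 or any LN naive replicate (0.45 to 0.69). Chdh fell to 6.72, 5.97 and 6.14 (-2.50 ± 0.32, adjusted p = 2.56e-06), Chl1 fell (-1.02 ± 0.26, adjusted p = 0.00644, and -0.72 without CD24lo replicate 3, adjusted p = 0.0781) and so did Adgrg3 (-0.94 ± 0.17, adjusted p = 0.000315). With the mean of its probe sets, 2 of which are near the floor, Chl1 was not called (-0.30, adjusted p = 0.0994). Between the same groups 2 of 5 B cell markers were higher in LN naive cells, with sums of 7.30 to 8.51 against 6.51 to 6.78, while 6 of 7 NK and NKT markers, both gamma delta markers and 9 of 9 cell cycle genes were lower. Their part was not tested.

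Because the CD24lo gate carried the NK, NKT and gamma delta T cell markers given above, LN naive cells were also set against Foxp3- CD24int cells. Both of these groups likewise took part in the choice of members. There 2 members were called higher and 2 lower, against 4.38% and 4.18% of all genes: Pdlim4 (2.44 ± 0.23, adjusted p = 9.82e-08) and Lypd6b (0.83 ± 0.21, adjusted p = 0.0103) rose, while Chl1 (-2.86 ± 0.26, adjusted p = 3.49e-08) and Adgrg3 (-2.39 ± 0.17, adjusted p = 1.8e-09) fell. Tdrp (0.31 ± 0.14) and Actn1 (0.16 ± 0.14) were not called against this gate, nor was Chdh (-0.96 ± 0.32, adjusted p = 0.067), which was called with quantile normalization (-0.97, adjusted p = 0.0461), with the compared groups alone (adjusted p = 0.0146) and without LN naive replicate 1 (-1.18, adjusted p = 0.0443). Here too 2 of 5 B cell markers were higher and 9 of 9 cell cycle genes lower in LN naive cells. The NK and NKT markers still differed, with 2 of 7 higher in LN naive cells and 0 lower. Their sums were 9.59 to 10.01 against 8.14 to 9.38. Of the 2 gamma delta markers 1 was lower and 0 higher. The part of these cells was not tested.

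In the Treg class 2 members were higher and 2 lower in LN Tregs than in Foxp3+ CD24lo cells, against 3.15% and 2.78% of all genes. Chdh rose 3.19-fold, from 6.16, 5.72 and 5.65 to 7.72, 7.34 and 7.499 (1.68 ± 0.32, adjusted p = 0.00123). Pxylp1 rose to 6.74, 6.58 and 6.64 (0.88 ± 0.24, adjusted p = 0.0274). Tdrp fell to 7.27, 7.56 and 7.64 (-0.59 ± 0.14, adjusted p = 0.0103) and Actn1 to 10.24, 10.16 and 10.08 (-0.51 ± 0.14, adjusted p = 0.0233). The last 3 calls were lost when 1 array was left out: Pxylp1 without any LN Treg replicate or CD24lo replicate 1 or 3 (0.70 to 0.92), Actn1 without LN Treg replicate 2 or 3 or CD24lo replicate 2 or 3 (-0.51 to -0.44), and Tdrp without LN Treg replicate 1 (-0.48) or CD24lo replicate 1 (-0.55). Pdlim4 was not called (0.35 ± 0.23), but was without LN Treg replicate 2, its lowest array there (0.75, adjusted p = 0.0227). Igfbp4, Lypd6b, Adgrg3 and Chl1 were not called. Of 5 B cell markers 2 were higher in LN Tregs and 0 lower, with sums of 8.13 to 8.84 against 6.97 to 7.11, and of 8 antigen-presenting cell markers 4 were higher and 0 lower, with sums of 9.62 to 10.17 against 8.32 to 8.82. Their part in the members' changes was not tested. With the block 1922 genes were called in all, against 1078.

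All probe sets with a single symbol were compared, since Igfbp4 has 6, Chl1 4, and Pxylp1 and Actn1 3 each. In a fit over the 34958 such probe sets, 13 of the 21 were called lower in precursors than in Foxp3- CD24hi cells and 0 higher, against 3.23% and 3.78% of all. For Igfbp4, 5 of 6 were called, at -1.58 to -1.07, and the sixth, at 6.73 in Foxp3- CD24hi cells, was not (-0.36). For Chl1 the 2 bright ones gave -2.12 and -1.75, while the other 2 averaged 2.62 and 3.67 in Foxp3- CD24hi cells, below the array medians, and gave -0.16 and -0.15. For Pxylp1 the pair at 7.16 and 8.14 gave -1.16 and -0.995, and the one at 3.53 gave -0.01. The 3 for Actn1 gave -0.28, -0.24 and -0.22, and none was called. At the second step 13 of 21 were again called lower and 0 higher, against 7.41% and 5.27%.

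**Figure D4:**
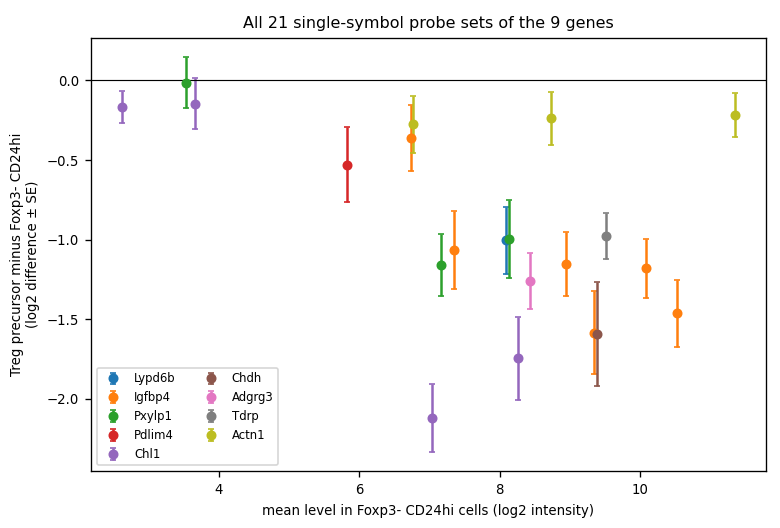
Difference between precursors and Foxp3- CD24hi cells (log2, ± SE, vertical axis) for all 21 probe sets of the 9 genes against their mean level in Foxp3- CD24hi cells (log2 intensity, horizontal axis). Probe sets under 4 log2 units lie between -0.16 and -0.01, and the bright ones of a gene lie together.

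Genes with the most similar course over the 9 group means, among those varying by at least 1 log2 unit, are named as a description, with Pearson's r over 9 points. For Lypd6b they were Mettl9 (0.982), Stt3b (0.982) and Il1rl2 (0.981), for Igfbp4 Hs3st3b1 (0.983), Nfe2l2 (0.981) and Mboat1 (0.981), and for Pxylp1 Rab11fip4 (0.983), Zfp386 (0.981) and Wdr46 (0.98). Pdlim4 was nearest to Aqr (0.983), Ramp3 (0.977) and Crtam (0.966). Chl1 was nearest to Patz1 (0.978), Fam110b (0.977) and Ckb (0.974), and Adgrg3 to Nrp (0.979), Snn (0.978) and Bora (0.971). Tdrp went with Hid1 (0.974), Slc16a5 (0.963) and Arhgap29 (0.959), Chdh with Il17rb (0.94), Slc37a2 (0.934) and Zmiz1 (0.913), and Actn1 with Dzip1 (0.919), Themis (0.909) and Myo10 (0.891). Hs3st3b1 encodes a heparan sulfate sulfotransferase, and its group means ranged over 3.89 log2 units.

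For context, 27 of 31 listed naive T cell genes were measured. From Foxp3- CD24hi cells to precursors 10 of them were lower and 0 higher, against 4.03% and 5.08% of all genes, with a median of -0.36. Without the array holding liver transcripts the counts were again 10 and 0, but not of the same genes. Id3 then lost its call (-0.57, adjusted p = 0.159) and Ms4a4b gained one (-0.39, adjusted p = 0.0366). Vipr1, a receptor for vasoactive intestinal peptide (-1.44 ± 0.26, adjusted p = 0.000321), Il7r, the interleukin-7 receptor chain (-1.33 ± 0.34, adjusted p = 0.0122), and Als2cl (-1.28 ± 0.20, adjusted p = 5.8e-05) fell most. Ets1, the brightest that was not called, gave -0.14 ± 0.10. From precursors to Foxp3+ CD24hi cells 2 naive genes fell and 7 rose, against 9.27% and 6.77% of all genes, with a median of 0.12. Vipr1 fell again (-1.11 ± 0.26, adjusted p = 0.00328), whereas Il7r (-0.13 ± 0.34) and Als2cl (0.20 ± 0.20) were not called.

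Of 53 listed relatives of the members, 49 were measured, and at the first step 4 were lower and 5 higher, against 4.03% and 5.08% of all genes, with a median of -0.12. Actn2, another alpha-actinin (-0.70 ± 0.20, adjusted p = 0.024), Pdlim5 (-0.65 ± 0.13, adjusted p = 0.0008) and Xylt2, a xylosyltransferase that starts glycosaminoglycan chains (-0.59 ± 0.14, adjusted p = 0.00543), were lower in precursors. The Actn2 call was lost without Foxp3- CD24hi replicate 3, the array holding liver transcripts (-0.66, adjusted p = 0.077). Ly6d (1.19 ± 0.20, adjusted p = 0.000212), the insulin-like growth factor 2 receptor gene Igf2r (1.04 ± 0.15, adjusted p = 2.35e-05) and Adgrg1 (0.91 ± 0.20, adjusted p = 0.0038) were higher. Actn4, the brightest that was not called, gave -0.08 ± 0.16. At the second step 6 relatives fell and 7 rose, against 9.27% and 6.77% of all genes, with a median of 0.05. Xylt2 fell further (-1.07 ± 0.14, adjusted p = 4.42e-06), Actn2 rose (1.78 ± 0.20, adjusted p = 5.08e-07), as did Igf2r (0.92 ± 0.15, adjusted p = 8.92e-05), and Ly6d fell (-1.51 ± 0.20, adjusted p = 7.81e-06). Bhmt, a liver enzyme gene downstream of Chdh in choline breakdown, had a first difference of -1.82 ± 0.75 and was not called. That difference rested on the array holding liver transcripts, with an SD of 3.14 in Foxp3- CD24hi cells, and was -0.01 without it.

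**Figure D5:**
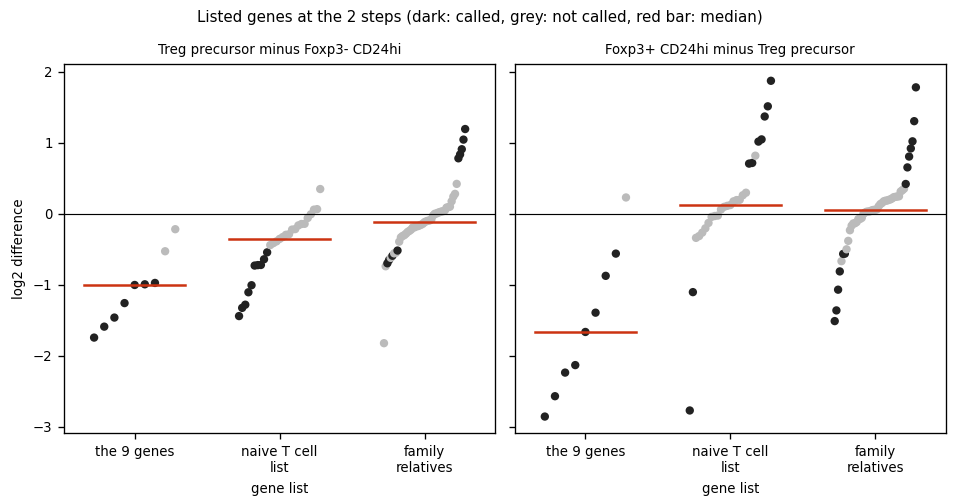
Log2 differences (vertical axis) at the step from Foxp3- CD24hi cells to precursors (left) and from precursors to Foxp3+ CD24hi cells (right) for the 9 genes, the 27 naive T cell genes and the 49 relatives (horizontal axis). Each point is a gene, dark where called and grey where not, and red bars are medians, at -1.005, -0.36 and -0.12 on the left and -1.67, 0.12 and 0.05 on the right.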

How the data were processed

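The deposited values are probe set intensities that the authors made with RMA, per the submitters' processing notes, from 50 ng of total RNA per sample, per the labels. RMA corrects background, normalises arrays and summarises probes, and its settings are not given in the sources used here. Values ran from 3.55 to 24083 and were transformed to log2 with no added constant. Of 45101 probe sets, 34958 had a single symbol, 932 several and 9211 none, and the last 2 kinds were left out. Each gene was read from 1 of these, the brightest on average over the arrays, which gave 18194 genes, and no dim gene was removed. Detection calls were not analysed here, and the number of arrays limits the precision.

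Group means were fitted on all 27 arrays with limma 3.58.1 in R 4.3.3, and p-values were two-sided and adjusted by Benjamini-Hochberg. The script was tested on simulated data. There were 10 tested comparisons. Replicate numbers are the first digit in each sample's description code. Deviations of same-numbered arrays correlated above 0.1 in every pair of each tested comparison except those of LN naive with Foxp3- CD24int (lowest r = -0.00057) and CD24lo (0.089), from the data alone. Members and lists were chosen with earlier results of these data known. Named genes were the members, sort markers, the 3 nearest in course, and, from each list, the 3 largest falls and rises at the first step and the brightest not called. Alternatives were quantile normalization, the mean of all probe sets, compared groups alone, a dim filter, the table of all probe sets, a replicate block, and leaving out each array.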

Additional observations from a re-analysis of the deposited data

Results flagged for a closer look

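Chdh, Tdrp and Actn1 moved in opposite directions in the 2 classes, with every array of the later group above, or below, every array of the earlier one. From CD24lo thymocytes to lymph node, Chdh fell in conventional cells (-2.50) and rose in the Treg class (1.68), a difference between classes of 4.18. Tdrp rose in conventional cells (1.73) and fell in the Treg class (-0.59), a difference of -2.32, and Actn1 did likewise (1.15 and -0.51), a difference of -1.65. From CD24hi to CD24int, Actn1 was 0.37 in conventional cells and -0.51 in Foxp3+ cells, a difference of -0.88, and neither of that pair was called. Set against Foxp3- CD24int in place of CD24lo cells, which held NK, NKT and gamma delta T cell markers, the conventional changes were smaller and not called, at -0.96 for Chdh, 0.31 for Tdrp and 0.16 for Actn1. These differences between classes were not tested, because they rest on the same gaps that chose the members.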

How the results depend on the processing

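With a replicate block, the counts of genes called rose to 2671 from precursors minus Foxp3- CD24hi, 4443 at the step to Foxp3+ CD24hi, 1822 and 3407 at the conventional steps, 210 and 23 at the Foxp3+ steps, 1922 from Foxp3+ CD24lo to LN Treg and 2640 from Foxp3- CD24int to LN naive. The block changed the member calls named in the report for Actn1 and Chdh, that of Chdh between LN naive and Foxp3- CD24int cells (adjusted p = 0.00074), and no other. With the compared groups alone the counts were 1001, 1804 and 552 for the first 3 of these comparisons, and 0 at both Foxp3+ steps. The small count between Foxp3+ CD24int and CD24lo, 3, became 8 with quantile normalization, 10 with the mean of all probe sets and 9 without dim genes. Leaving out 1 array gave 14 to 73 genes at the first Foxp3+ step and 1 to 7 at the second.

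The position of the precursors moved with the reference. At CD24int it was 29.4% for Adgrg3, -45.1% for Chdh, -0.64% for Chl1, 74.8% for Igfbp4, 80.3% for Pdlim4, 48.0% for Pxylp1 and 79.0% for Tdrp. At CD24lo it was -19.3% for Adgrg3, -124.4% for Chl1, 79.8% for Igfbp4, 33.1% for Lypd6b, 78.7% for Pdlim4 and 50.7% for Pxylp1. Without Foxp3- CD24hi replicate 3 it was 44.5% for Pdlim4. The cause was not tested.

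Of the members' tested differences, those whose sign turned were not called in either setting. Between LN naive and Foxp3- CD24int cells, Actn1 was -0.062 with the mean of all probe sets and Igfbp4 0.029 with quantile normalization. Ranges without 1 array that crossed 0 were -0.060 to 0.047 for Igfbp4 there, -0.060 to 0.57 for Pxylp1 at the first Foxp3+ step, -0.29 to 0.091 for Chdh, -0.24 to 0.41 for Lypd6b and -0.15 to 0.085 for Pdlim4 at the second, -0.16 to 0.22 for Adgrg3 and -0.16 to 0.020 for Lypd6b from Foxp3+ CD24lo to LN Treg, and -0.075 to 0.27 for Tdrp between precursors and Foxp3- CD24lo. Compared groups alone called Lypd6b at both conventional steps and Adgrg3 against Foxp3- CD24lo, which quantile normalization and the dim filter also called, and lost Chdh and Actn1 against that gate. In the larger table of probe sets Actn1 was lost there too (adjusted p = 0.058). The 7 first-step calls held in every alternative run. Dim probe sets limit what can be seen of Chl1 and Pxylp1, as do low levels in Foxp3+ cells for Pdlim4, Adgrg3 and Lypd6b.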
